A study of Mus musculus with 4 samples.

Results

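Chromatin accessibility was described at 5 genes for calcium-binding proteins, Pvalb, Calb1, Calb2, Necab1 and Necab2, of the 21938 protein-coding genes of the mouse. The genes were taken as a named list, and each was read over a window that held its gene body and 20 kb on either side. The measurements were single-nucleus profiles from the 10x Genomics assay, in which a transposase cuts open DNA and each cut site is counted in the peaks called for its library. All 4 libraries came from Dlx6aCre;Sun1/sfGFP mice at postnatal day 30, of which 2 were from cortex and 2 from hippocampus. In Dlx6aCre mice, Cre acts in cells of the ganglionic eminences, and so in the forebrain inhibitory neurons that descend from them, and it switches on the nuclear envelope protein Sun1 fused to sfGFP, so every library was made from sorted GFP-positive nuclei and GFP-negative nuclei are not analysed here. The labels did not say whether the 2 libraries of a brain region came from separate animals, and the p-values below therefore measure the spread between these libraries only.

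The proteins of this list carry EF-hand motifs, which bind calcium in a loop between helices. Parvalbumin (Pvalb), calbindin D28k (Calb1) and calretinin (Calb2) buffer calcium in the cytosol, and antibodies against them have long served to tell classes of cortical and hippocampal inhibitory neurons apart. Parvalbumin marks fast-spiking basket and chandelier cells, which arise in the medial ganglionic eminence (MGE), whereas calretinin is found in many interneurons of the caudal ganglionic eminence (CGE), and calbindin occurs in several classes as well as in some excitatory neurons. Necab1 and Necab2 code for neuronal calcium-binding proteins that carry EF hands together with a monooxygenase-like domain. Accessibility at a gene is not its expression, and the values below are numbers of cut sites.

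The libraries held between 2355 and 5576 nuclei and between 32005984 and 117290059 cut sites in peaks. Median cut sites per nucleus were 47236 in cortex 1, 7352 in cortex 2, 12685.5 in hippocampus 1 and 14917 in hippocampus 2. Peaks had been called in each library on its own, and they covered 97.6, 33.4, 101 and 62.1 Mb in the same order, so that cortex 2 had the fewest and shortest peaks. Between 11 and 47 barcodes were shared by any pair of libraries. Levels are given as normalised CPM, the cut sites per 1000000 cut sites in the library's peaks, after scaling by TMM factors of 0.995, 1.12, 0.863 and 1.04. Summed levels of the 8 pan-GABA genes lay between 1710 and 2506 CPM, and none of these genes was at 0 in any library. In list sums over whole libraries, here and below, a cut site in overlapping gene windows was counted for each gene. Of the 7 excitatory markers, Emx1, Neurod6, Slc17a6 and Tbr1 were at 0 in at least 1 library, and the list summed to 137 to 171 CPM. The sums for glial and endothelial lists lay between 90.9 and 609 CPM.

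The question of the design was whether the nuclei of cortex and hippocampus differed at these genes. The Necab1 and Necab2 windows had higher levels in both hippocampus libraries than in both cortex libraries, whereas the levels of Pvalb, Calb1 and Calb2 overlapped between the brain regions. No window passed the edgeR threshold after adjustment over all 18398 windows tested (0%, adjusted p = 0.9998 for each of the 5 genes), while 493 of the 18398 windows (2.68%) had an unadjusted p below 0.05, among them Necab1 and Necab2, and 2.42% had one with a higher level in hippocampus. With DESeq2, 172 of 18399 windows passed (0.935%), among them Necab1 and Necab2. Both hippocampus libraries lay above both cortex libraries in 21% of all windows, and the reverse held in 5.79%, so a hippocampus side of this kind was common. The median log2 fold change over all windows was 0.10.

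Per kb of window, the Pvalb window was the most accessible of the 5 and stood at the 95.3rd percentile of all windows, with 3.42 ± 0.34 CPM per kb (SD over the 4 libraries, n = 4). Between 29.4% and 50.1% of its cut sites in a library lay at a start of the neighbouring gene Ift27. No percentile was computed without them. The Necab2 window followed with 1.21 CPM per kb, then Calb2 with 0.77, Necab1 with 0.31 and Calb1 with 0.24. The libraries of Pvalb all lay above those of Necab2, and those of Calb2 above those of Necab1, whereas Necab2 and Calb2 overlapped, as did Necab1 and Calb1. The Necab1 window was also the longest, at 238 kb, against 55.3 to 70.7 kb for the other 4 genes.

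**Figure D1:**
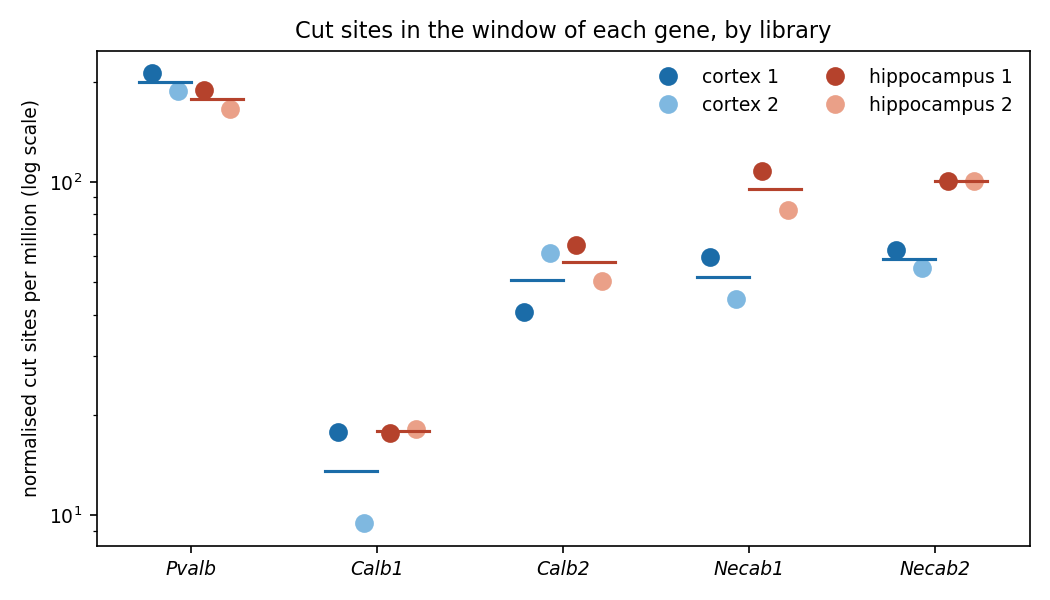
Normalised CPM in the window of each gene (log scale), with a point for each library and a line at the mean of each brain region. Both hippocampus points lie above both cortex points for Necab1 and Necab2, and the points of the brain regions overlap for Pvalb, Calb1 and Calb2.

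Merging the peaks of the 4 libraries gave 185260 regions, of which 53 lay in the windows of the 5 genes. Of these, 22 held a peak of every library and are called common regions, 11 held a peak of 3 libraries, 5 of 2 and 15 of 1. Regions are numbered along the chromosome within each window, and distances run from the middle of a region to the gene start in the direction of transcription. A region without a peak in a library has no count there, which is not the same as a count of 0. Of the 53 regions, 13 had peaks in hippocampus libraries alone and 5 in cortex libraries alone, which is 24.5% and 9.43%, against 27.0% and 15.7% of all merged regions. The hippocampus-only regions were unevenly placed, with 8 of the 18 in the Necab1 window, 4 of the 12 at Necab2, 1 of the 2 at Calb1 and none of the 10 at Pvalb or the 11 at Calb2. Cortex 2 had a peak in 4 of the 18 Necab1 regions and in 8 of the 10 Pvalb regions, compared with 31.1% of all merged regions.

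**Figure D2:**
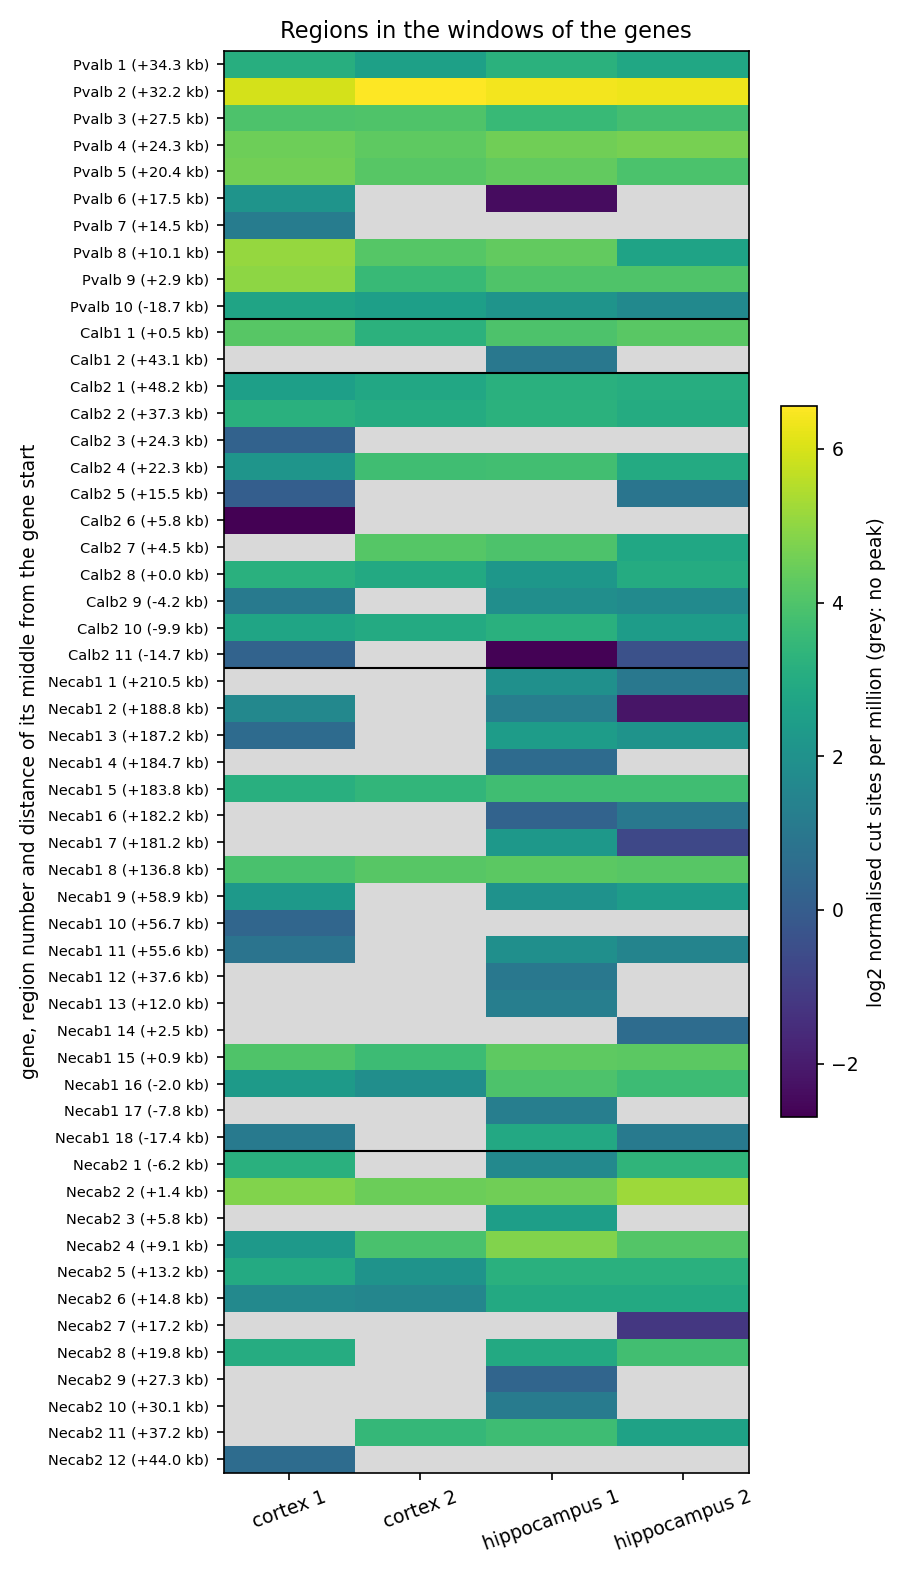
The 53 regions in the windows of the 5 genes (rows, in chromosome order within each gene, with the distance of the middle from the gene start) against the 4 libraries (columns). Colour gives log2 normalised CPM and grey marks a library with no peak, which is frequent in the Necab1 window and rare in the Pvalb window.

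The Pvalb gene lies on the reverse strand of chromosome 15 (chr15:78191114-78206400, GRCm38). Its window had 212 and 188 CPM in the cortex libraries and 189 and 166 CPM in the hippocampus libraries. The highest value was in cortex 1 and the lowest in hippocampus 2, and the other libraries lay together between them. The log2 fold change (hippocampus over cortex) was -0.17 ± 0.19 (SE). A large share of this window did not belong to Pvalb, since region 2 (chr15:78173220-78175248) covers a start of Ift27, a gene for a protein of intraflagellar transport, and had 62.4 and 94.0 CPM in cortex and 84.6 and 79.4 CPM in hippocampus. It held between 29.4% and 50.1% of the window's cut sites. Without it, the Pvalb window had 150 and 93.6 CPM in cortex and 105 and 86.9 CPM in hippocampus, which again overlapped.

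Pvalb has 2 annotated starts, and the libraries treated them differently. The downstream start at position 78204237 (transcript Pvalb-201) lay in a peak of all 4 libraries, in region 9 (chr15:78201324-78205717), whereas the upstream start at position 78206400 (Pvalb-202) lay in a peak of none. The 250 bases before each start are shown because they contrast an accessible promoter with one outside every peak. Both are from RefSeq (GRCm38.p6, reverse strand, chr15:78204238-78204487 and chr15:78206401-78206650), and capitals mark a match to a searched motif.
Pvalb-201: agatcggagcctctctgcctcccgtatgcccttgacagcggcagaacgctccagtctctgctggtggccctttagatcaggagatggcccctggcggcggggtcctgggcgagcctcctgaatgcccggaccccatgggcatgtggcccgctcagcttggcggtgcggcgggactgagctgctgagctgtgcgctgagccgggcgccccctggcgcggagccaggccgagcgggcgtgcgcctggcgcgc
Pvalb-202: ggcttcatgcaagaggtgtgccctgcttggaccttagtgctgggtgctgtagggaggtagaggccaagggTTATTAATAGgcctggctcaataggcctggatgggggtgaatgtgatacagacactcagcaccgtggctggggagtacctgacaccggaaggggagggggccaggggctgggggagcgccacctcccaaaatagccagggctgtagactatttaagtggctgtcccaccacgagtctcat
The searched motifs were, on both strands, the AP-1 motif, CRE (TGACGTCA), a homeodomain core (TAATTA), an E-box (CAGCTG), another E-box (CAGATG), a nuclear receptor half-site (AGGTCA) and a GC box (GGGCGG), together with the TATA box (TATAAA) and the MEF2 motif. The promoter of Pvalb-201 held none of them, and that of Pvalb-202 held a MEF2 match at bases 71 to 80. The MEF2 motif was present in 1.69% of 32841 promoter windows of 250 bases. A match is a description of letters and not a binding site.

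Of the 8 common regions at Pvalb, 5 had fold changes below 0 and 3 above 0, and none had an unadjusted edgeR p below 0.05, against 7.66% of all 46698 common regions. Region 9, at the downstream start, had 31.6 and 11.5 CPM in cortex and 16.1 and 15.9 CPM in hippocampus, so cortex 1 stood above the rest and the brain regions overlapped. Region 8 (chr15:78194017-78198667), which lies in intron 4, had 34.1 and 17.2 CPM in cortex and 19.9 and 6.35 CPM in hippocampus, with cortex 1 highest and hippocampus 2 lowest. Its log2 fold change of -0.96 ± 0.66 was within 2 standard errors of 0 and ranged from -2.003 without hippocampus 1 to -0.37 without hippocampus 2. Region 10 (chr15:78224770-78225365), 18.7 kb upstream, had 6.59 and 5.80 CPM in both cortex libraries and 4.26 and 3.26 CPM in both hippocampus libraries. It was 1 of 2 regions at Pvalb whose cortex libraries both lay above the hippocampus libraries, as 18.3% of all common regions did, with a fold change of -0.72 ± 0.47 and the smallest p in this direction (0.174, unadjusted). Region 4 (chr15:78181121-78183017), downstream of the gene, was the region of smallest p in the other direction, with 22.7 and 19.4 CPM in cortex, 23.3 and 25.03 CPM in hippocampus and a fold change of 0.20 ± 0.22.

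The middle 300 bases of region 8 are shown because cut sites in this intronic region fell in the same nuclei as those at the start more often than expected, as described below. They cover chr15:78195559-78195858 on the forward strand of GRCm38.p6, and capitals mark an E-box at bases 45 to 50 and GC boxes at bases 101 to 106 and 211 to 216.
Pvalb region 8: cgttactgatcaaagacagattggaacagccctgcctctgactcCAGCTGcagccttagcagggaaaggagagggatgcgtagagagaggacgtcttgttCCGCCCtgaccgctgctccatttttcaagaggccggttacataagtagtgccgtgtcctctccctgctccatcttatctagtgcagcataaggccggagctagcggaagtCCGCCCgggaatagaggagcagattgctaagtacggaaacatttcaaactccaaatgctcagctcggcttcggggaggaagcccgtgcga
The E-box CAGCTG was present in 31.3% and the GC box in 22.6% of 46695 windows of 300 bases at the middle of common regions.

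Calb1 lies on the forward strand of chromosome 4 (chr4:15881264-15908064) and had the lowest level of the 5 genes over the whole window. Within 2 kb of the start, in CPM of the library total, Calb1 had 17.7, 10.6, 13.5 and 18.9 and lay above Calb2, with 8.98, 8.56, 3.99 and 8.39, in all 4 libraries. Peaks at the Calb2 start were shorter, at 899, 386, 492 and 527 bp. Per covered kb, the start region of Calb1 had 10.1, 20.2, 9.23 and 10.7 CPM and that of Calb2 10.0, 19.9, 9.41 and 15.2 CPM. By this measure Calb1 did not lie above Calb2 in either hippocampus library. The Calb1 window held a single common region, at the gene start (chr4:15880915-15882675), and 1 further region, a peak of hippocampus 1 alone at a coding exon of the neighbouring gene Decr1 with 1.99 CPM. The window had 17.8 and 9.47 CPM in cortex and 17.6 and 18.1 CPM in hippocampus. Cortex 2 was low and the other 3 libraries were alike, so the brain regions overlapped, and the log2 fold change was 0.39 ± 0.57. Peaks at the start covered 1761 bp in cortex 1, 469 bp in cortex 2, 1692 bp in hippocampus 1 and 1694 bp in hippocampus 2. The low value of cortex 2 thus went with a shorter peak, and the part of peak length in the value was not tested beyond the fit with covered length as an offset, in which the fold change of this region was -0.60 ± 0.67 instead of 0.30 ± 0.35.

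Calb2 lies on the reverse strand of chromosome 8 (chr8:110137502-110168210). Its window had 40.6 and 61.2 CPM in cortex and 64.9 and 50.6 CPM in hippocampus. Cortex 1 was the lowest and hippocampus 1 the highest, the brain regions overlapped, and the log2 fold change was 0.18 ± 0.26. The 5 common regions lay between 4.42 and 13.3 CPM. Region 8 (chr8:110167752-110168650), at the gene start, had 9.02 and 7.68 CPM in cortex and 4.63 and 8.03 CPM in hippocampus, with the single low value in hippocampus 1 and a fold change of -0.40 ± 0.37, the smallest p in this direction (0.326, unadjusted). Region 1 (chr8:110119676-110120408), downstream of the gene, had 5.76 and 7.23 CPM in cortex and 9.08 and 8.39 CPM in hippocampus. It was the only Calb2 region with both hippocampus libraries above both cortex libraries, with a fold change of 0.43 ± 0.30 (unadjusted p = 0.203). Region 4 (chr8:110145480-110146340), which covers the tenth exon, ranged from 4.42 CPM in cortex 1 to 13.3 CPM in hippocampus 1.

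The highest mean level in the Calb2 window was that of region 7 (chr8:110163268-110164133) in intron 1, which had no peak in cortex 1 and 17.4, 15.6 and 7.11 CPM in cortex 2, hippocampus 1 and hippocampus 2. Its sequence is shown because it bears on how this value can be read. The middle 300 bases (chr8:110163547-110163846, forward strand, GRCm38.p6) consist of 83.7% T or G, all of them are marked as repeats in the genome sequence, and none of the searched motifs is present.
Calb2 region 7: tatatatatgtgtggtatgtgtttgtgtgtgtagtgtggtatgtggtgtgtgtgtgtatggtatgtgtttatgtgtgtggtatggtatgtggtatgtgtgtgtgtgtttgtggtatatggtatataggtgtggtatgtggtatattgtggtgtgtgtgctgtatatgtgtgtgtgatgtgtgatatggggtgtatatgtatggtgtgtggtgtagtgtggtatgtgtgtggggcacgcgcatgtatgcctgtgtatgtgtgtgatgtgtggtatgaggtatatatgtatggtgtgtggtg
A share of T or G this high was found in 0.0364% of the common windows, whose median was 50%. How reads were placed in this repeat is not recorded in the files, and the level of the region is therefore uncertain. Region 7 carried most of the difference between cortex 1 and the other libraries in the Calb2 window, since cortex 1 alone lacked this peak.

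Necab1 lies on the reverse strand of chromosome 4 (chr4:14952245-15149794). Its window had 59.7 and 44.5 CPM in cortex and 108 and 82.5 CPM in hippocampus, so both hippocampus libraries were above both cortex libraries. The log2 fold change was 0.87 ± 0.23 with an unadjusted edgeR p of 0.0095, and the adjusted p was 0.0361 with DESeq2. The window held 18 regions but only 4 common ones, all 4 with fold changes above 0. Region 15 (chr4:15147884-15149876), at the gene start, had 16.2 and 12.4 CPM in cortex and 19.3 and 18.6 CPM in hippocampus, with a fold change of 0.41 ± 0.25. With covered length as an offset, the fold change of region 15 was -0.28 ± 0.66. Of the 2 annotated starts in this region, the downstream start (Necab1-201, position 15149131) lay in a peak of all 4 libraries and the upstream start (Necab1-202, position 15149794) in a peak of cortex 1 and hippocampus 1 only. Region 8 (chr4:15012297-15013723), in intron 5 and 137 kb from the start, had 14.9, 17.8, 18.6 and 17.6 CPM in the order of the libraries and was the most even region of the gene.

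Region 16 (chr4:15151116-15152401), centred 1.96 kb upstream of the gene start, differed most between the brain regions. It had 5.13 and 3.64 CPM in cortex and 15.6 and 12.5 CPM in hippocampus, and the gap between the groups was larger than the spread within either. The log2 fold change was 1.68 ± 0.32, with an unadjusted edgeR p of 0.00213 and an adjusted p of 0.511. With DESeq2, the adjusted p was 0.0237, and this was the only region of the 22 that passed, against 0.754% of all common regions. The value was 1.70 ± 0.32 among nuclei above the median of the MGE-over-CGE score defined below and 1.63 ± 0.36 among those below it. This split rests on few cut sites per nucleus and is not a division into cell types. The part of the mix of MGE and CGE nuclei in the value of region 16 was therefore not tested. Peaks here covered 708 and 220 bp in cortex and 1286 and 1012 bp in hippocampus, and with covered length as an offset the fold change was 0.06 ± 0.67. The higher counts therefore went with wider peaks, and the level per covered kb overlapped, with 7.25 and 16.6 CPM in cortex and 12.1 and 12.4 CPM in hippocampus.

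Necab2 lies on the forward strand of chromosome 8 (chr8:119446719-119472640). Its window had 62.4 and 55.1 CPM in cortex and 100.4 and 100.6 CPM in hippocampus, so that the hippocampus libraries were nearly equal and both lay above the cortex libraries. The log2 fold change was 0.77 ± 0.17 with an unadjusted edgeR p of 0.00366, and the adjusted p was 0.00165 with DESeq2. All 4 common regions had fold changes above 0, and in 3 of them both hippocampus libraries lay above both cortex libraries, as in 18.4% of all common regions. Region 2 (chr8:119446166-119450078), at the gene start, was the exception, with 28.01 and 22.1 CPM in cortex and 23.3 and 36.8 CPM in hippocampus. Region 4 (chr8:119454629-119457058), in intron 5, had 4.86 and 14.8 CPM in cortex and 28.1 and 16.8 CPM in hippocampus, with a wide spread in both groups and a fold change of 1.199 ± 0.61, which was 0.58 without cortex 1 and 2.21 without cortex 2. Region 6 (chr8:119461164-119461795), also in intron 5 and 14.8 kb from the start, had 3.19 and 2.94 CPM in cortex and 7.53 and 7.53 CPM in hippocampus. The libraries of each brain region lay close together, with a fold change of 1.30 ± 0.41, an unadjusted edgeR p of 0.0202 and an adjusted p of 0.266 with DESeq2. With covered length as an offset, its fold change was 0.24 ± 0.72. Those of regions 2, 4 and 5 then fell below 0, at -0.53 ± 0.65, -0.06 ± 0.66 and -0.10 ± 0.68.

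The promoter and region 6 of Necab2 are shown, the first as the accessible start shared by all libraries and the second as a region that lay at the CGE end of the score described below in every library. The promoter is from RefSeq (GRCm38.p6, chr8:119446469-119446718, forward strand) and region 6 is chr8:119461330-119461629 on the forward strand. Capitals mark an AP-1 match at bases 82 to 88 of the promoter, and homeodomain cores at bases 149 to 154 and 159 to 164 and a GC box at bases 257 to 262 of region 6.
Necab2 promoter: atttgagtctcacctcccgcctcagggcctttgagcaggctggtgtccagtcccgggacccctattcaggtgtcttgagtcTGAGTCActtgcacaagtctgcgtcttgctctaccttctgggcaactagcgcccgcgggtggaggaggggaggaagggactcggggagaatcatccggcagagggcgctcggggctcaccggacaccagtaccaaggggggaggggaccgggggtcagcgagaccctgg
Necab2 region 6: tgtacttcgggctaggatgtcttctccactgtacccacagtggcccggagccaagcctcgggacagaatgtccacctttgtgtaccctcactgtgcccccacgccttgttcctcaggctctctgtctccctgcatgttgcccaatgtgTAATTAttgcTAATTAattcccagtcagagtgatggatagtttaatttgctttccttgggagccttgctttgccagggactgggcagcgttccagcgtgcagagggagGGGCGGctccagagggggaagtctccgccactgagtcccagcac
The AP-1 motif was present in 6.75% of the promoters, and the homeodomain core TAATTA in 6.12% of the common windows.

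Over the 22 common regions, 15 had log2 fold changes above 0 and 7 below 0. Both hippocampus libraries lay above both cortex libraries in 8 and the reverse was true in 2, with overlap in the other 12, against 18.4% and 18.3% of all common regions. Of the 8, 3 were at Necab1, 3 at Necab2 and 1 each at Pvalb and Calb2. None passed the edgeR threshold (0% of 46698 common regions) and 2 had an unadjusted p below 0.05 (7.66% of all common regions did), namely region 16 of Necab1 and region 6 of Necab2. Counted per covered kb, both hippocampus libraries were above both cortex libraries in 1.96% of all common regions and the reverse in 7.19%. Among the 22, region 10 of Pvalb kept its cortex side per covered kb, with 11.1 and 18.5 against 8.86 and 8.99 CPM, and the others overlapped.

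**Figure D3:**
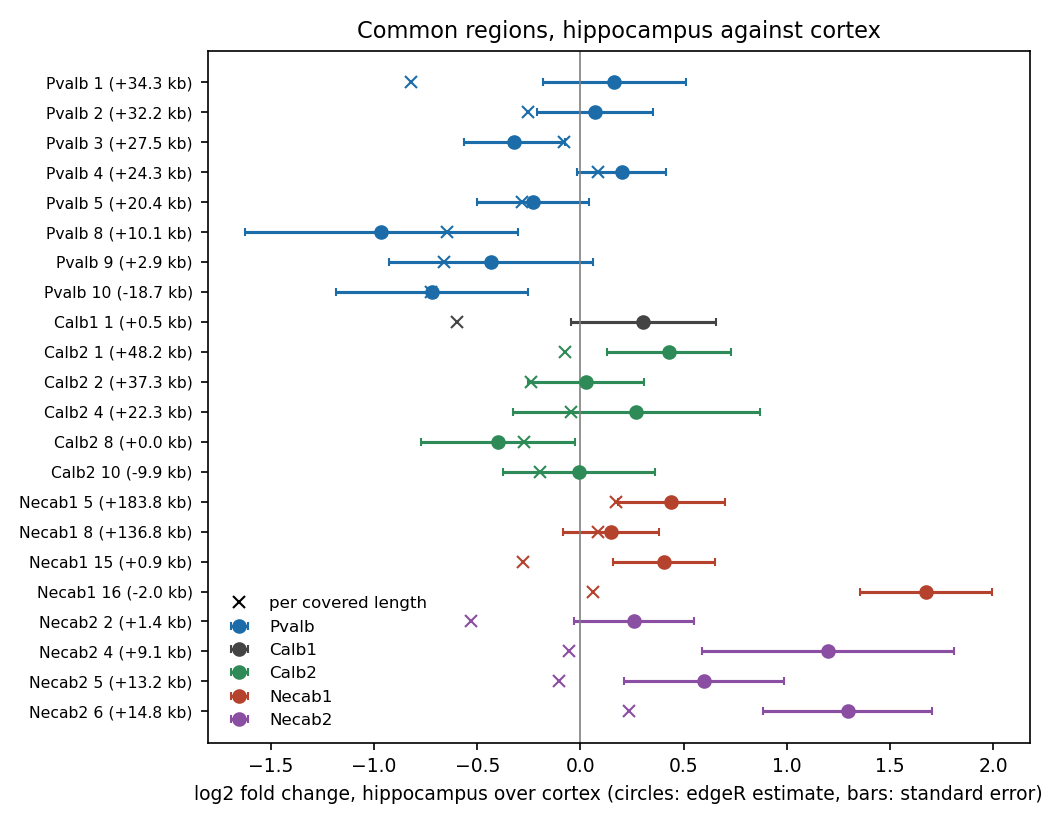
Log2 fold change of the 22 common regions, hippocampus over cortex, with edgeR estimates as circles, standard errors as bars and the estimate with covered length as an offset as crosses. Region 16 of Necab1 stands furthest to the right at 1.68 and moves to 0.06 with the offset, whereas region 10 of Pvalb stays at -0.72 in both.

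Other measures moved with the brain regions in the same way as Necab1 and Necab2. The summed level of the 8 CGE markers was 346 to 430 CPM in cortex and 550 to 656 CPM in hippocampus, that of the 8 pan-GABA genes was 1710 to 2171 and 2265 to 2506 CPM, and that of the 9 genes of the oligodendrocyte lineage was 386 to 493 and 537 to 609 CPM. The MGE list overlapped, with 597 to 1403 CPM in cortex and 863 to 1212 CPM in hippocampus. Single genes of a list did not all follow its sum. In CPM of the library total, Adarb2, Npas1, Nr2f2 and Prox1 were higher in both hippocampus libraries, whereas Sp8, Htr3a and Cnr1 overlapped. Vip was lower, with 9.44 and 10.1 in cortex and 5.90 and 5.34 in hippocampus. Adarb2 had 64.2 and 73.7 in cortex and 204 and 109 in hippocampus. The peaks in the Necab2 window covered 8623 and 2974 bp in cortex and 10647 and 9412 bp in hippocampus. The part of these in the Necab1 and Necab2 values was not tested. Within the nuclei above and below the median of the MGE-over-CGE score, the fold changes were 0.90 and 0.83 for Necab1. For Necab2 they were 0.89 and 0.66. The median nucleus had 0 to 2 cut sites for either list, and 1144 nuclei of cortex 2 lay exactly at the median. Each side of the median can therefore hold nuclei of both kinds, and the split does not test the part of the CGE level. In common regions alone, the fold changes were 0.52 for Necab1 and 0.65 for Necab2.

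Of 32 other genes of EF-hand proteins, including calmodulins, neuronal calcium sensors and S100 proteins, all 32 were tested and none passed with edgeR or DESeq2. Their median log2 fold change was 0.08, against 0.10 over all windows, with 19 above 0 and 13 below 0. Both hippocampus libraries were higher for 9 and both cortex libraries for 3, against 21% and 5.79% of all windows. Only S100b, which codes for a calcium-binding protein abundant in astrocytes, had an unadjusted p below 0.05, as 2.68% of all windows did, with 59.7 and 48.2 CPM in cortex, 127 and 76.5 CPM in hippocampus and a fold change of 0.91 ± 0.28. The summed level of the 6 astrocyte markers overlapped between the brain regions, at 265 to 308 and 290 to 379 CPM. That of the oligodendrocyte lineage was higher in hippocampus, as given above. The part of glial nuclei in the S100b value was not tested. Caln1 followed in this direction with 0.72 ± 0.30, and Hpcal4 and Kcnip1 had the smallest p in the other direction with -0.28 ± 0.17 and -0.37 ± 0.34. Necab3, the third gene of the Necab family, had 100.2 and 92.0 CPM in cortex and 101 and 101 CPM in hippocampus with a fold change of 0.07 ± 0.16.

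To see how the genes varied among the nuclei of a library, each nucleus was thinned to 2000 cut sites and scored by the log2 ratio of cut sites at 8 MGE marker genes to those at 8 CGE marker genes. None of the 5 calcium-binding genes is in either list. Quartile 4 is called the MGE end and quartile 1 the CGE end of this range, which is not a division into cell types, since the median nucleus had 0 to 2 cut sites for either list and between 46 and 1144 nuclei of a library lay exactly at a quartile limit. Shallow nuclei were left out, between 0 and 206 in a library. The median depth was 42037 cut sites at the CGE end and 51709.5 at the MGE end in cortex 1, and between 7342 and 15823 at these ends in the other libraries. Levels here are in CPM of the quartile's total. In the list levels given here, a cut site in overlapping gene windows was not counted again for each gene. These levels are therefore not comparable with the list sums over whole libraries above. The Calb1 window was higher at the MGE end in 4 of 4 libraries (log2 ratios of 0.35, 0.49, 0.05 and 0.18 in the order of the libraries) and the Necab1 and Necab2 windows were higher at the CGE end in 4 of 4 (-0.24, -0.17, -0.28 and -0.03, and -0.50, -0.36, -0.13 and -0.19). At 5000 cut sites per nucleus, the Necab1 window was at 0.036 in hippocampus 2 and at -0.39, -0.10 and -0.34 in the others, so its direction depended on the depth of thinning, whereas Calb1 and Necab2 kept theirs. The Calb2 window was at -0.56, -0.11, -0.17 and 0.09, and it lay at the CGE end in all 4 libraries at 5000 cut sites (-0.99, -0.20, -0.15 and -0.34) and with the score from all cut sites. The Pvalb window ran from 189 to 235 CPM in cortex 1, from 204 to 225 in cortex 2, from 159 to 168 in hippocampus 1 and from 178 to 163 in hippocampus 2, so its direction was not shared by all libraries at this depth. At 5000 cut sites its log2 ratios were 0.41, 0.13, 0.20 and 0.01. The pan-GABA genes were also higher at the CGE end than at the MGE end in all 4 libraries (1644 and 1502, 1383 and 1260, 1671 and 1593, and 1753 and 1711 CPM), as were the genes of the oligodendrocyte lineage (513 and 479, 425 and 416, 546 and 487, and 575 and 523 CPM), and their part in the Necab1, Necab2 and Calb2 values was not tested.

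Single regions separated the ends further than whole windows did. Of the 22 common regions, 5 were higher at the MGE end in all 4 libraries and 5 at the CGE end. The share of all windows or common regions with a single direction was not computed at any depth of the score. These counts therefore cannot be read as particular to the 5 genes. The regions of the MGE end were regions 8, 9 and 10 of Pvalb, the start of Calb1 and region 16 of Necab1. Region 10 of Pvalb, upstream of the gene, had log2 ratios of 0.89, 0.38, 0.88 and 0.49, and region 9, at the accessible start, 0.73, 0.18, 0.54 and 0.38. Regions 1 and 2, at Ift27, had no common direction at 2000 cut sites, but at 5000 region 1 lay at the MGE end in all 4 libraries (0.30, 1.00, 0.54 and 0.43) and region 2 at the CGE end (-0.14, -0.12, -0.04 and -0.20), and both kept these sides with all cut sites. The regions of the CGE end were the start region of Necab1 (-0.77, -0.48, -0.46 and -0.40), regions 2, 4 and 6 of Necab2 and region 10 of Calb2. Region 6 of Necab2, whose sequence is shown above, had ratios of -1.39, -1.75, -1.04 and -0.61. Region 4 of Necab2 had -2.03, -0.79, -0.22 and -0.17, but in hippocampus 2 it was at 0.08 at 5000 cut sites and at 0.06 with all cut sites, so its direction was not kept. At Necab1, the start region and the region 1.96 kb upstream thus lay on opposite sides. The values of the upstream region were small in the thinned score (0.11, 0.35, 0.03 and 0.26), and it was at -0.32 in cortex 1 at 5000 cut sites and at -0.10 there with all cut sites.

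**Figure D4:**
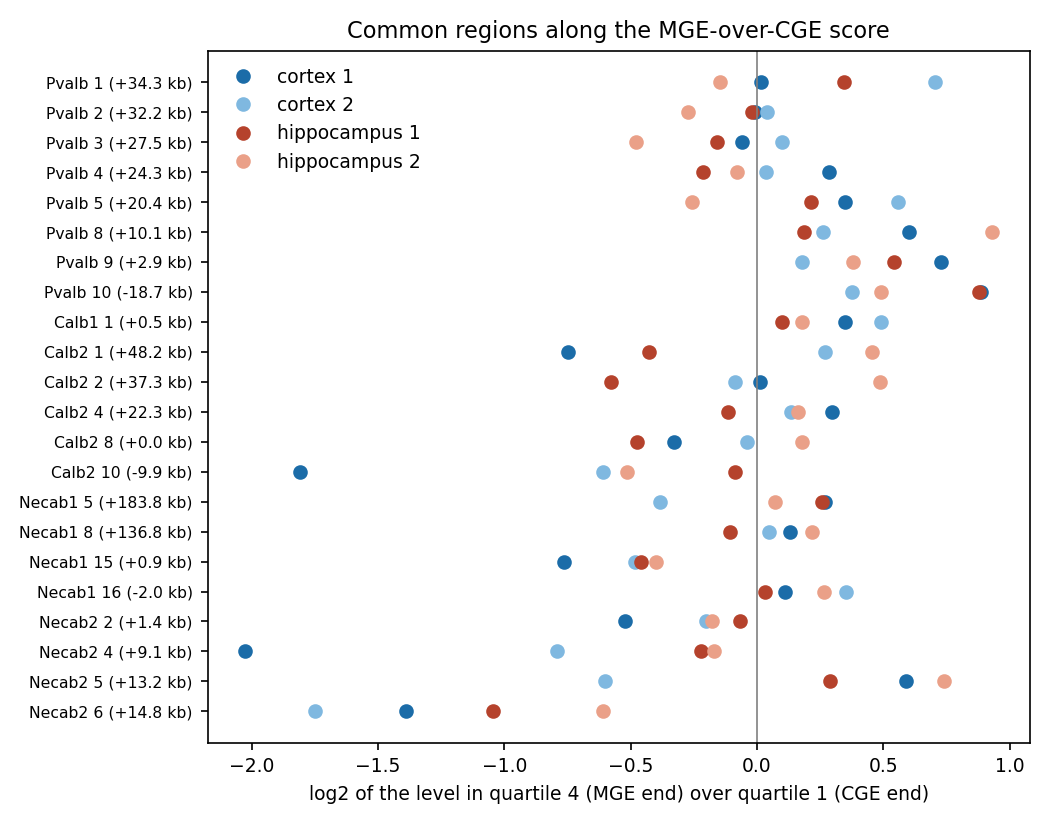
Log2 ratio of the level at the MGE end (quartile 4) to that at the CGE end (quartile 1) for the 22 common regions, with a point for each library. All 4 points lie right of 0 for regions 8, 9 and 10 of Pvalb, Calb1 region 1 and Necab1 region 16, and left of 0 for Calb2 region 10, Necab1 region 15 and Necab2 regions 2, 4 and 6.

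With the score taken from all cut sites of each nucleus, 7 of the 22 were at the MGE end and 8 at the CGE end in all 4 libraries, and 14 of these 15 kept the sign of the mean ratio of the thinned score. The start of Calb2, which codes for calretinin, then lay at the CGE end in every library (-0.75, -0.34, -0.46 and -0.59). Outside the common regions, region 11 of Necab1 (chr4:15093989-15094424, intron 3), a region chosen after its values were seen, had peaks in 3 libraries and 3.52 CPM at the CGE end against 0.572 CPM at the MGE end in cortex 1, 4.73 against 2.09 CPM in hippocampus 1 and 4.19 against 1.60 CPM in hippocampus 2. These rest on 93 against 18, 83 against 39 and 49 against 20 cut sites. Its sequence is shown as a Necab1 region that lay at the CGE end in all 3 libraries with a peak, and it holds no searched motif (chr4:15094040-15094339, forward strand, GRCm38.p6).
Necab1 region 11: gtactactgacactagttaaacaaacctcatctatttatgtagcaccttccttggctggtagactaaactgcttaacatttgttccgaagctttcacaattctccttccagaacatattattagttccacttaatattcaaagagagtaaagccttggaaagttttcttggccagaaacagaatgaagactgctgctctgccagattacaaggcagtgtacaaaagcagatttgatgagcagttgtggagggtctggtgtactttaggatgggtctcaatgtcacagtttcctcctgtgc

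The last question was whether the genes were accessible in the same nuclei. At 2000 cut sites per nucleus, a cut site in the Pvalb window was found in 24.5% to 31.0% of the nuclei of a library, at Necab2 in 10.6% to 16.4%, at Necab1 in 8.06% to 14.4%, at Calb2 in 7.81% to 11.1% and at Calb1 in 1.73% to 3.44%. The Pvalb share was 14.2% to 22.8% with the Ift27 start left out. For the gene body and 2 kb upstream it was 10.3%, 4.89%, 4.63% and 3.66% in the order of the libraries, against 9.72%, 8.06%, 12.5% and 13.2% for Necab1, so Pvalb was then below Necab1 in 3 of the 4 libraries. These shares follow the number of cut sites in each window and are not shares of expressing cells. Of the 10 pairs of genes, 9 had observed counts of nuclei with both windows that lay above the product of the shares in some libraries and below it in others. Calb1 and Necab1 were the exception. Both were found in 13, 9, 26 and 26 nuclei, against 7.78, 5.56, 20.8 and 15.3 expected, or log2 ratios of 0.74, 0.70, 0.32 and 0.76. These counts are small, and the exact 95% Poisson interval of the ratio, which covers counting error only, included 1 in 3 of the 4 libraries and ran from 1.11 to 2.49 in hippocampus 2. At 5000 cut sites the log2 ratios were 0.35, 0.49, 0.14 and 0.29. Calb1 and Necab1 both lie on chromosome 4, within the 1 Mb that was left out when other genes were ranked below. The part of this nearness in the ratios was not tested. How often gene pairs in general kept a single side in all libraries was not computed. Pvalb and Calb2 were found together in 48, 133, 116 and 89 nuclei against 56.96, 131, 132 and 91.5 expected. The exact interval of this ratio included 1 in all 4 libraries.

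Pairs of single regions were compared with all cut sites, as the sum over nuclei of the product of the cut sites in both regions over the value expected from their shares and the depths of the nuclei. Of the 231 pairs of common regions, 29 were above expectation in all 4 libraries and 15 below it. Within a gene, 14 of 50 pairs were above and none below, and between genes 15 of 181 were above and 15 below. By gene, the pairs above were 6 of 28 at Pvalb, 1 of 10 at Calb2, 4 of 6 at Necab1 and 3 of 6 at Necab2. These shares were not computed for other regions of the series. The counts therefore cannot be read as particular to the 5 genes. A log2 ratio over 0.2 in all libraries was reached by 6 pairs, namely 1 of the 181 between genes, 1 of the 6 within Necab1 and 4 of the 28 within Pvalb. Regions 8 and 9, the intronic region and the accessible start, had 0.81, 0.45, 0.82 and 0.82, regions 5 and 8 had 0.53, 0.62, 0.60 and 0.49, regions 5 and 9 had 0.36, 0.52, 0.42 and 0.40, and regions 8 and 10 had 0.38, 0.73, 1.13 and 0.38. Region 2, at the Ift27 start, reached this with none. At Necab1, regions 5 and 8 reached it with 0.24, 0.23, 0.48 and 0.38. The only pair between genes was the start region of Necab1 with region 6 of Necab2, with 0.31, 0.39, 0.61 and 0.22, both of which lay at the CGE end of the score. The lowest expected sum for this pair was 13.7. In the opposite direction, region 8 of Pvalb and region 10 of Calb2 lay below expectation in all libraries, with -0.67, -1.14, -0.04 and -1.28. Pairs share nuclei and depth, so these ratios are a description and carry no p.

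**Figure D5:**
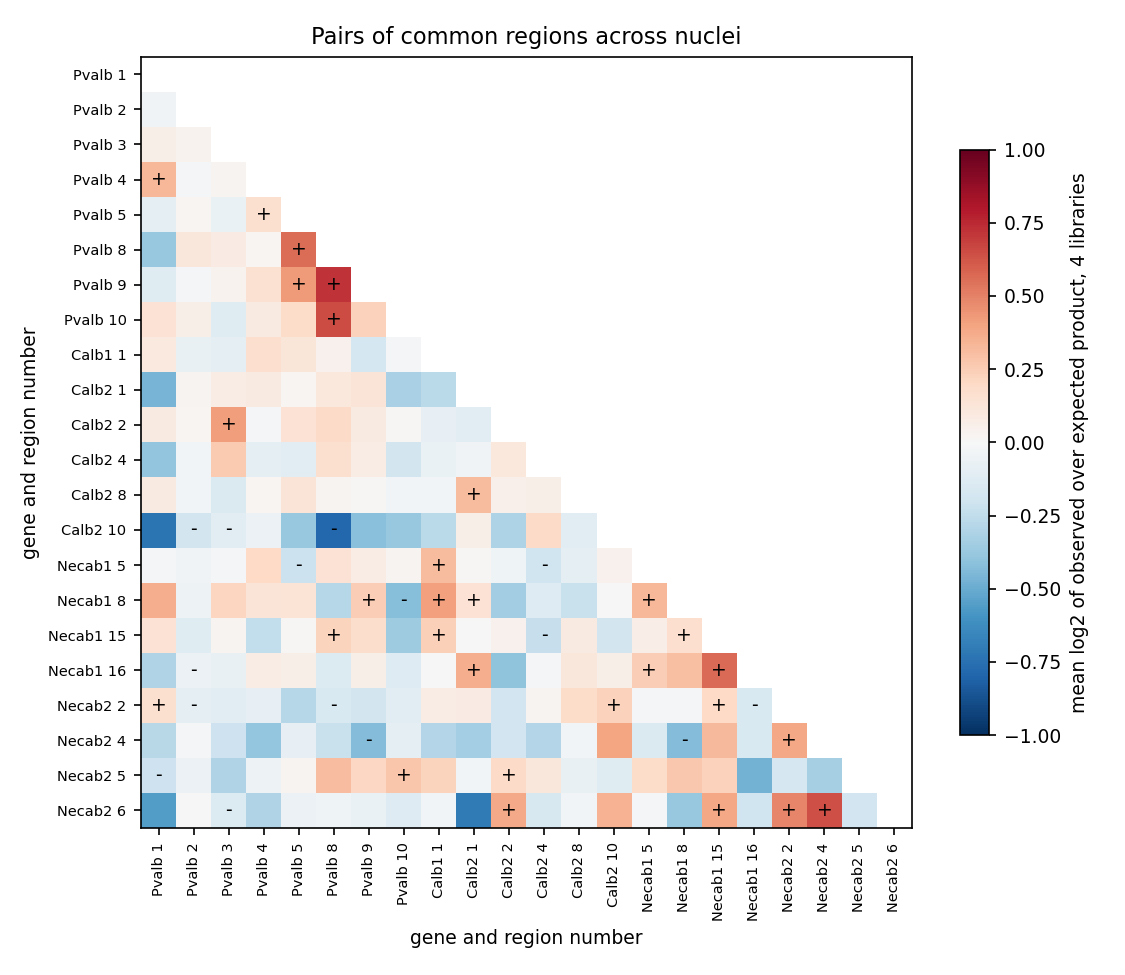
Mean over the 4 libraries of the log2 ratio of the observed to the expected product of cut sites for each pair of the 22 common regions, with red above and blue below expectation. A plus or minus sign marks the pairs on the same side in all 4 libraries, and the Pvalb pairs 5 and 8, 5 and 9, 8 and 9, and 8 and 10 carry plus signs with means between 0.42 and 0.72.

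Genes whose windows overlapped most with each of the 5 across nuclei were ranked by the lowest log2 ratio of observed to expected nuclei over the 4 libraries, among genes over 1 Mb away. For Pvalb these were Tnfrsf13b, Zfp949 and Slc15a1, for Calb1 Rabl6, Osbpl10 and Tbc1d30, for Calb2 Pard6g and Mycn, for Necab1 Thbs4, Slc25a31 and Atp5o, and for Necab2 Col4a4 and Tifa. The lowest ratios were small, from 0.16 for Slc15a1 to 0.25 for Pard6g, out of 1450 to 15505 genes ranked. None of these genes was among the leading 3 when the product of all cut sites was used. By that measure the first gene for Calb2 was Gm11232, with 0.70, 0.37, 0.25 and 0.46. Vip, which codes for a neuropeptide of CGE-derived interneurons and is in the CGE list, was the second, with 0.13, 0.24, 0.17 and 0.23. Gimap5 followed with 0.15, 0.39, 0.15 and 0.12.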

How the data were processed

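Sorted GFP-positive nuclei were profiled in 2 cortex and 2 hippocampus libraries. The authors made the deposited counts of cut sites per peak and nucleus with Cell Ranger ATAC 1.2.0, per the processing notes in the labels, on GRCm38, with peaks called in each library separately and nuclei already selected; peak and filter settings are not given in the sources used here. Peaks that overlapped by at least 1 bp were merged across libraries, and cut sites were summed per region and per gene window (GENCODE M21, gene body and 20 kb on either side). Sums were compared with edgeR 4.0.16 (quasi-likelihood test, all 4 libraries, brain region as the only term, TMM factors from the common regions, Benjamini-Hochberg adjustment over all windows or regions, threshold 0.05) and with DESeq2 1.42.0 as an alternative, in R 4.3.3. An exact permutation test of 2 against 2 libraries cannot give a p below 0.333 and was not used. Nuclei are not replicates, so ratios over nuclei carry no p, and their Poisson intervals (95%) cover counting error only. The scripts were tested on simulated data.

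All 5 genes are described throughout. Within a window, the region at the start, the 2 with the highest mean level and the common regions of lowest p on either side were named. Of the other EF-hand genes, the 2 of lowest p on either side were named, and of genes that overlap with a member across nuclei, the 3 with the highest lowest ratio, with at least 20 expected nuclei in every library; some items chosen by these rules are not reported here. Pvalb regions 5 and 8, Calb2 region 10, Necab1 regions 5 and 11, Necab3, Vip, Gm11232 and Gimap5 were named after their values were seen. The genes and lists were chosen with earlier results of these data known. Sample numbers were checked for pairing: deviations of same-numbered libraries correlated at -0.04 over common regions and 0.13 over gene windows, with 2 pairs, so the numbers were not taken to pair samples. Alternatives were other scalings, window definitions, depths of thinning, leaving out each library and, added after seeing the data, covered length as an offset, neighbouring gene starts left out, nuclei on either side of the median score for regions, the score from all cut sites and the product of all cut sites. Promoters came from RefSeq (GRCm38.p6), whose table held 2 of the 5 genes (3 entries, all equal to the genome sequence).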

Additional observations from a re-analysis of the deposited data

Results flagged for a closer look

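Region 4 of Pvalb, downstream of the gene, was set apart because its direction along the MGE-over-CGE score was opposite in the brain regions. Its log2 ratio of the MGE end to the CGE end was 0.28 in cortex 1 and 0.037 in cortex 2, and -0.21 in hippocampus 1 and -0.080 in hippocampus 2. With the score from all cut sites, the ratios were 0.74 and 0.33 in cortex and -0.47 and -0.11 in hippocampus. The difference between the brain regions was not tested. The pattern was looked for in each of the 22 common regions and the 5 windows, and in the overlap of every pair of the 5 windows across nuclei. Region 4 of Pvalb alone showed it.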

How the results depend on the processing

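The fold changes of the Pvalb, Calb1, Necab1 and Necab2 windows kept their direction under all 14 alternatives, with ranges of -0.73 to -0.08, 0.01 to 0.91, 0.52 to 1.09 and 0.35 to 0.89 on the log2 scale. All 14 counted cut sites in each library's own peaks, and covered length as an offset was fitted for regions only. The part of peak width in the window values was therefore not tested. The Calb2 window was at -0.40 within 2 kb of the gene start and ranged from -0.10 (without cortex 1) to 0.51 over the fits that left out 1 library. DESeq2 called Necab1 (0.77) and Necab2 (0.68). Called windows were 172 with DESeq2, 16 with library totals alone, 70 in common regions only, 1 for the gene body and 2 kb upstream and 33 for 2 kb around the start, and 0 to 223 when a library was left out, the 223 being without cortex 1. Called common regions were 352 with DESeq2, 275 with library totals alone and 0 to 3184 when a library was left out (3184 without cortex 1, 24 without cortex 2). Among the 22 regions of the 5 genes, 1 was called with DESeq2, 1 with library totals alone and 0 to 1 when a library was left out, in each case region 16 of Necab1 (adjusted p of 0.0459 with edgeR and totals alone, and 0.00773 without cortex 1). Library totals alone moved the median of all windows from 0.10 to -0.06 and that of common regions from -0.02 to -0.17. With covered length as an offset, none of the 22 regions was called, and the cause of these changes was not tested. Without cortex 1, region 9 of Pvalb was at 0.47 and region 4 of Calb2 at -0.33. Of the 10 gene pairs, 1 lay on the same side of expectation in all libraries, and 2 did for the gene body and 2 kb upstream, 2 in common regions only, 2 for the product of all cut sites, 2 for that product with neighbouring gene starts left out, and 2 to 4 when a library was left out. Windows with a single direction along the score numbered 3 of 5, 4 at 5000 cut sites (Pvalb and Calb2 gained, Necab1 lost), 4 with all cut sites (Calb2 gained), and 3 to 5 when a library was left out, with 5 without hippocampus 2. Of the common regions with a single direction, region 16 of Necab1 and region 4 of Necab2 lost it in both of these alternatives.

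With the sample number as a replicate block, no window, no common region and none of the 22 regions was called, as without it (0 each). The blocked fold changes were -0.17 for Pvalb, 0.46 for Calb1, 0.20 for Calb2, 0.87 for Necab1 and 0.78 for Necab2, and the block changed no call. Cut-site depth was lowest in cortex 2, and 338 cut sites for Calb1 there limit the precision of that gene.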
